A study of Homo sapiens with 9 samples.

Results

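The metallothioneins examined here are MT1E, MT1F, MT1G, MT1M, MT1X and MT2A, 6 of the 20323 genes in the deposited table. They were found by gene symbol, each symbol stood on 1 row, and all 6 passed the filter on low counts. The list was chosen by gene family with earlier expression values of these comparisons in view, so the members' values and p-values are given as a description, and nothing is read from how many of them passed. RNA came from HKC-8, a human cell line established from kidney proximal tubule epithelium, and was sequenced as 9 poly(A)-selected libraries. The question raised by the series title is how Wnt/β-catenin signaling acts in the passage from acute kidney injury to chronic kidney disease.

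The 3 control libraries came from HKC-8 cells given the empty vector pcDNA3. The 3 libraries named Wnt1 came from cells given a plasmid for the secreted ligand Wnt1. The 3 libraries named Wnt1_KP6 came from cells given the Wnt1 plasmid together with KP6, a peptide derived from the kidney protein Klotho. All 9 carry the batch label 1, no dose or time is stated, and nothing says that replicates were separate cultures. The p-values therefore reflect library-to-library spread alone, which may be technical. Because the cells were sequenced in bulk, less RNA per cell and fewer expressing cells cannot be told apart.

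Metallothioneins are small cytosolic proteins whose many cysteines hold zinc, copper or cadmium in metal-thiolate clusters. Their genes are switched on by the zinc-sensing factor MTF1, which binds metal response elements in their promoters, and also by glucocorticoids and oxidative stress. In the kidney the proximal tubule makes them, and they are best known there for buffering zinc and for binding cadmium. MT2A is the main form in most human cells, and the MT1 genes are a set of closely related copies beside it.

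The family's coding sequences are shown because their likeness bears on every value: reads from one copy can be assigned to another. The 6 coding sequences (GENCODE 29, build hg38, without the stop codon) held 61 codons each, except MT1G with 62, and every one held 20 cysteine codons. Identity between pairs ran from 88.5% for MT1F and MT1X to 93.5% for MT1G and MT2A. MT2A, the most abundant member, and MT1F, the member whose call is described below, were 91.3% identical. They are printed 5′ to 3′ with the cysteine codons TGC and TGT in capitals.
MT2A: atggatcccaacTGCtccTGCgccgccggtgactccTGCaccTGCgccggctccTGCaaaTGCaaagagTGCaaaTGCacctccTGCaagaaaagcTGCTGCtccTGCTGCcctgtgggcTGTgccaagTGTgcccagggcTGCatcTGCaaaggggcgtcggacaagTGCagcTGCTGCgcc
MT1F: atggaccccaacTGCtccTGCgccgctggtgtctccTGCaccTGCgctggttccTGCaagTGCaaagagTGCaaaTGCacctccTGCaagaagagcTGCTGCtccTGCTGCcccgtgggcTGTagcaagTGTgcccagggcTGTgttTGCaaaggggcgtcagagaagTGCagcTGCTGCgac

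Exact recurrence of short windows was counted over the members' whole transcripts annotated as protein coding, without separating coding from non-coding parts. Other annotated transcripts of the members gave no windows. A window that differs at any base counts as not shared. Of all windows of 100 bases in these protein-coding transcripts, none of MT1E, MT1F, MT1G, MT1M or MT2A recurred in another annotated gene, while 30.8% of those of MT1X recurred in AC026461.1, a gene that overlaps it on the same strand. With windows of 50 bases the shared part was 3.27% for MT1F, 4.24% for MT2A, 7.1% for MT1E, 9.87% for MT1M, 16.5% for MT1G and 43.6% for MT1X. Counting only windows of 50 bases that recurred in another of the 6 members, MT1G had the highest share, 12.1%, followed by MT1X with 6.08%. Of the 54 expected counts of the members, 52 were whole numbers, and the other 2 were those of MT1G (786.74) and MT1X (1338.26) in control replicate 3. Reads exchanged between copies cannot be told apart from a copy's own expression.

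All 6 genes are protein coding and lie within 76.0 kb of chromosome 16. In the stretch of this chromosome searched around them, GENCODE 29 places 16 metallothionein genes, 11 protein coding and 5 pseudogenes. In build hg38 MT2A lies at chr16:56608199-56609497, MT1E at chr16:56625475-56627112, MT1M at chr16:56632233-56633986 and MT1F at chr16:56657694-56660698. MT1G lies at chr16:56666731-56668065 and MT1X at chr16:56682424-56684196. MT1G is on the minus strand and the other 5 on the plus strand.

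Promoter sequence is shown for MT2A and MT1X, 2 of the 6 members matched in the RefSeq table (GRCh38.p14), because metal response elements are the family's best-known control sites. Each line holds the 250 bases before the RefSeq start of the gene, 5′ to 3′ on the plus strand, chr16:56608334-56608583 for MT2A and chr16:56682220-56682469 for MT1X. Capitals mark the metal response element core, searched as TGCACNC and TGCGCNC on both strands. The motifs were chosen after the sequences had been seen. GENCODE 29 starts the MT2A gene upstream of this window, so for MT2A it lies within the gene's annotated span. The MT1X gene starts at base 56682424 in GENCODE 29, so the end of the MT1X window also lies within the annotated gene.
MT2A upstream: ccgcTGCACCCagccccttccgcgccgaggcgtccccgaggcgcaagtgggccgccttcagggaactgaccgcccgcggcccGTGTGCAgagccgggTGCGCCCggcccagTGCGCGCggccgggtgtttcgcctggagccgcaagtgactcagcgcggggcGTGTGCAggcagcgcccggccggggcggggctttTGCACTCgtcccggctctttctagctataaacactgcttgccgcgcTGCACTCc
MT1X upstream: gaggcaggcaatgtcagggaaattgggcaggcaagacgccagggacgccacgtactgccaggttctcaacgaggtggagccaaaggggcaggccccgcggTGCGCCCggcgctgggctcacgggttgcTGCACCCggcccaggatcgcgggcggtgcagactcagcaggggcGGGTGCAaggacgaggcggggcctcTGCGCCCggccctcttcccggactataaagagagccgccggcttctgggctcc

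The MT2A window held 7 matches to the core, the nearest ending 2 bases before the start, and the MT1X window held 4. Of 35116 RefSeq promoter windows of this length, 24.8% held at least 1 match, 0.37% held 4 or more and 0.0313% held 7 or more. MT2A also held 1 match to the AP-1 site TGACTCA, found in 4.2% of windows, and MT1X held none. Both held 1 match to TATAAA, found in 10.7%. A match describes letters and is not evidence that a factor was bound.

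Library totals ran from 21199078 to 27507623 expected counts. The WNT1 gene had 0 counts in all 6 control and Wnt1 libraries and 1, 2 and 0 in the Wnt1_KP6 libraries. Whether RNA from the plasmid would be counted under this gene is not stated. The transcript therefore does not check the plasmid labels, and the directions below rest on those labels. Replicate 1 of every group stood apart: on the first principal component, 38.1% of the variance, the 3 libraries numbered 1 lay between -38.82 and -37.36 and the other 6 between 9.21 and 25.1. Replicate 1 of Wnt1 and replicate 1 of Wnt1_KP6 differed by a chi-square of 3.45 per degree of freedom over genes, against 3.09 between replicates 2 and 3 of Wnt1, although their labels differ. Replicate 1 of Wnt1 differed from the other Wnt1 libraries by 54.3 and 54.7. Results are therefore also given with replicates 2 and 3 alone. Epithelial and renal lineage markers were present (8 of 10 with a median FPKM of at least 1, among them PAX8 and KRT8), but only 2 of 12 proximal tubule markers were, GGT1 and MME, with LRP2, CUBN and AQP1 at or near 0. Of 12 fibroblast, endothelial and immune markers 1 passed that level, COL1A1, and their summed FPKM was 4.91 to 9.96 in control, 3.88 to 6.08 in Wnt1 and 4.75 to 7.06 in Wnt1_KP6.

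MT2A was the dominant transcript of the family. Its level per length, in FPKM (fragments per kilobase of transcript, scaled to library size), was 915, 4103 and 4992 in control replicates 1, 2 and 3, which made it the 51st, 10th and 10th highest of all genes in those libraries. In Wnt1 it stood at 1706, 1551 and 1569 FPKM, rank 23, 25 and 25, and in Wnt1_KP6 at 1346, 1190 and 1124 FPKM, rank 34, 31 and 33. Control replicates 2 and 3 were above every other library and control replicate 1 was below every other one, so the controls enclosed the range of both plasmid groups.

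Per length the order in the control means was MT2A (3336 ± 2144 FPKM, SD, n = 3), MT1E (557 ± 271), MT1X (94.4 ± 51.9), MT1F (67.2 ± 8.19), MT1G (55.2 ± 28.6) and MT1M (27.1 ± 10.4). In Wnt1 the means were 1609 ± 84.7 for MT2A, 280.2 ± 16.6 for MT1E, 53.4 ± 10.5 for MT1F, 51.9 ± 4.20 for MT1X, 27.0 ± 12.0 for MT1G and 18.4 ± 4.38 for MT1M. In Wnt1_KP6 they were 1220.1 ± 114 for MT2A, 201 ± 27.3 for MT1E, 33 ± 5.24 for MT1X, 26.7 ± 3.13 for MT1F, 11.4 ± 4.68 for MT1G and 9.68 ± 2.83 for MT1M. MT2A stood above MT1E and MT1E above the other 4 with no overlap of libraries within any group. MT1X and MT1F overlapped between libraries in all 3 groups, as did MT1G and MT1M. Within single libraries MT1G was above MT1M in all 3 controls, and MT1X above MT1F in all 3 Wnt1_KP6 libraries. In the other groups the order of each pair varied between libraries. MT1F and MT1G overlapped in control but not in the other groups.

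Values below are CPM, the expected count scaled to a common library total, which compares libraries for 1 gene. Summed over the 6 members they were 582, 2243 and 2627 CPM in control, 927, 875 and 883 in Wnt1, and 722, 637 and 610.2 in Wnt1_KP6. Each library thus gave between 0.0582% and 0.263% of its counts to the family. The 3 Wnt1 libraries lay above the 3 Wnt1_KP6 libraries, while control replicate 1 lay below all of them and controls 2 and 3 above.

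MT2A, the main zinc and cadmium binding form, was at 367, 1646 and 2003 CPM in control, 684, 622 and 630 in Wnt1, and 540.0, 478 and 451 in Wnt1_KP6. MT1E, the second most abundant member, was at 161, 478 and 497 CPM in control, 195, 182 and 185 in Wnt1, and 151, 128 and 122 in Wnt1_KP6. MT1X, the member that overlaps another annotated gene, was at 14, 48.9 and 51.8 CPM in control, 19.3, 22.9 and 21 in Wnt1, and 15.8, 11.7 and 12.7 in Wnt1_KP6. These 3 share one pattern: the Wnt1 libraries were tight and above Wnt1_KP6, and control replicate 1 was far below its own group.

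MT1F was at 24.5, 30.5 and 30.6 CPM in control, 17.6, 24.7 and 25.8 in Wnt1, and 9.97, 11.4 and 12.6 in Wnt1_KP6. For this member control replicate 1 was close to the other controls, and all Wnt1_KP6 libraries lay below all 6 others. MT1G, the member on the minus strand, was at 9.10, 27.5 and 30.5 CPM in control, 5.31, 13.8 and 13.7 in Wnt1, and 2.85, 4.42 and 6.59 in Wnt1_KP6. MT1M, the least abundant member by mean, was at 6.23, 11.7 and 14.3 CPM in control, 5.53, 9.01 and 7.43 in Wnt1, and 2.85, 3.64 and 5.07 in Wnt1_KP6. For MT1G and MT1M replicate 1 was the lowest library in every group, and Wnt1_KP6 lay below control without overlap.

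**Figure D1:**
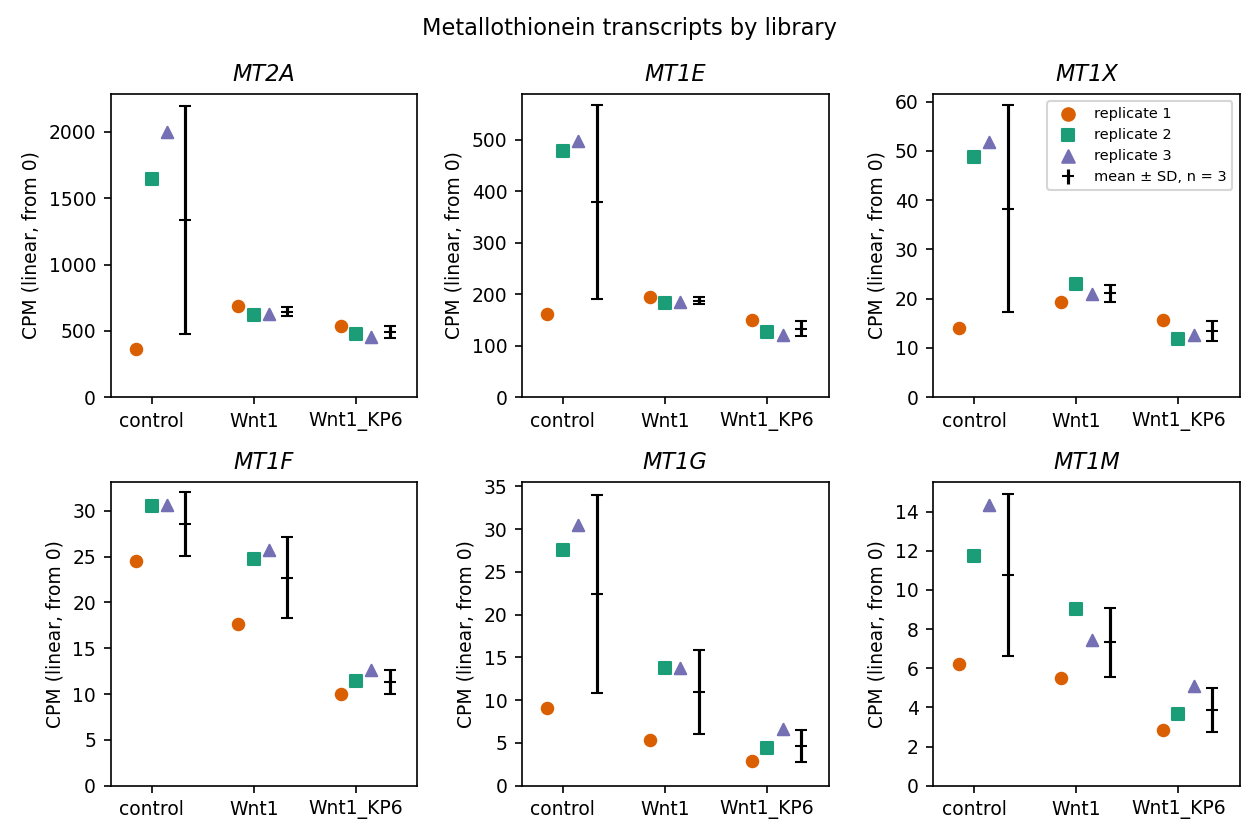
Each panel plots the CPM of 1 member (linear axis from 0) in the 9 libraries, coloured by replicate number, with the group mean ± SD (n = 3) beside them. Control replicate 1 of MT2A sits at 367 CPM against 1646 and 2003 for the other controls, whereas the 3 Wnt1_KP6 libraries of MT1F sit between 9.97 and 12.6, below every control and Wnt1 library.

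Replicate 1 differed from replicates 2 and 3 by different amounts in different members. In control the mean of replicates 2 and 3 was 4.97 times replicate 1 for MT2A, 3.59 times for MT1X, 3.19 times for MT1G, 3.03 times for MT1E, 2.09 times for MT1M and 1.25 times for MT1F. In Wnt1 the same ratio was 0.915 for MT2A and 0.942 for MT1E, but 2.59 for MT1G. In Wnt1_KP6 it was 0.861 for MT2A, 0.826 for MT1E and 1.93 for MT1G. By this ratio MT1F, MT1G and MT1M were lower in replicate 1 of every group, and MT2A and MT1E only in that of control. MT1X was lower in replicate 1 of control and Wnt1 but not of Wnt1_KP6. Library number 1 moved with these values, and its part in them was not tested.

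The make-up of the pool therefore differed between libraries. MT2A held 63.1% of the members' counts in control replicate 1 and 71.1% to 76.2% in the other 8 libraries. MT1E held 27.7% in control replicate 1 and 18.9% to 21.3% elsewhere. MT1F held 4.22% in control replicate 1, 1.36% and 1.16% in the other controls, 1.90%, 2.83% and 2.92% in Wnt1, and 1.38%, 1.79% and 2.07% in Wnt1_KP6. MT1G held 0.573%, 1.57% and 1.56% in Wnt1 and 0.394%, 0.694% and 1.08% in Wnt1_KP6.

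**Figure D2:**
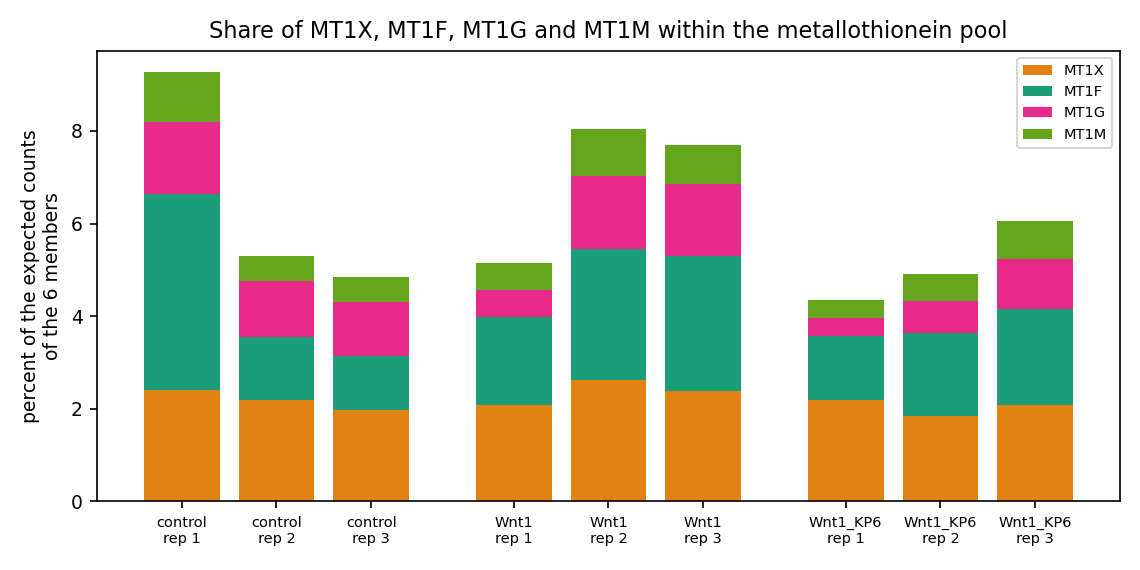
Stacked bars give the percent of the 6 members' expected counts (axis from 0) held by MT1X, MT1F, MT1G and MT1M in each library; MT2A and MT1E make up the rest. The MT1F block is largest in control replicate 1, at 4.22%, and takes 1.16% to 2.92% in the other 8 libraries.

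Wnt1 libraries were compared with control to see what the Wnt1 plasmid changed. All 6 members were lower on average, and none passed edgeR's quasi-likelihood test at an adjusted p of 0.05. The log2 fold changes were -1.04 ± 0.49 (SE) for MT2A (adjusted p = 0.475), -1.0 ± 0.36 for MT1E (0.345), -0.84 ± 0.41 for MT1X (0.487), -0.31 ± 0.19 for MT1F (0.591), -1.01 ± 0.54 for MT1G (0.531) and -0.54 ± 0.35 for MT1M (0.616). At an unadjusted p under 0.05 the test gave 1 of 6, MT1E, beside 11.2% of all genes, and DESeq2 called 0 of 6, beside 0.76% of all genes called lower. The replicate block called 0 of 6, beside 0.0912%. Over all 13153 genes tested 0.122% were called, and 0.0076% were called lower. No member was lower in CPM without overlap of the groups, against 9.12% of all genes.

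Control replicate 1 went against the other controls here. Between same-numbered libraries the log2 ratio of Wnt1 to control for MT2A was 0.90 in replicate 1 but -1.40 and -1.67 in replicates 2 and 3. MT1E gave 0.28, -1.39 and -1.42, and MT1X gave 0.46, -1.09 and -1.3. The other 3 were below 0 in every replicate: MT1F at -0.48, -0.30 and -0.25, MT1G at -0.78, -1.0 and -1.15, and MT1M at -0.17, -0.38 and -0.95. Without control replicate 1, MT1E (-1.37, adjusted p = 0.000162), MT1X (-1.25, 0.00121) and MT2A (-1.49, 0.000307) were called lower, beside 2.73% of all genes. With replicates 2 and 3 alone all 6 were called lower, beside 15.3% of all genes, from -1.52 ± 0.08 for MT2A (adjusted p = 1.19e-08) to -0.25 ± 0.09 for MT1F (0.0499).

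Wnt1_KP6 was compared with Wnt1 to see what the peptide added to the plasmid. All 6 members were lower on average with KP6, and edgeR called none of them at 0.05 and no gene in the whole table (0.0%). The log2 fold change was -0.94 ± 0.19 for MT1F, with an unadjusted p of 0.000751 and an adjusted p of 1. It was -1.18 ± 0.56 for MT1G, -0.86 ± 0.36 for MT1M, -0.60 ± 0.42 for MT1X, -0.44 ± 0.36 for MT1E and -0.35 ± 0.49 for MT2A, each with an adjusted p of 1. At an unadjusted p under 0.05 the test gave 2 of 6, MT1F and MT1M, beside 2.76% of all genes, and DESeq2 called 1 member, MT1F (adjusted p = 0.0125), beside 0.0152% of all genes called lower. This edgeR fit shares its estimate of spread over all 3 groups, controls included. With only the 2 groups compared it gave -0.35 ± 0.08 for MT2A, -0.44 ± 0.08 for MT1E and -0.60 ± 0.12 for MT1X. MT1F was at -0.94 ± 0.19, MT1G at -1.18 ± 0.47 and MT1M at -0.86 ± 0.30. All 6 then had an unadjusted p under 0.05, beside 3.43% of all genes, and 0 were called.

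Every same-numbered ratio of Wnt1_KP6 to Wnt1 was below 0, for all 6 members in all 3 replicates. It was narrow for MT2A, at -0.34, -0.38 and -0.48, and for MT1E, at -0.37, -0.51 and -0.61. It was deeper for MT1F, at -0.82, -1.11 and -1.03, MT1G, at -0.90, -1.64 and -1.06, and MT1M, at -0.96, -1.31 and -0.55, and MT1X gave -0.30, -0.96 and -0.72. Whether the members differ from each other in this was not tested. All but MT1G, 5 of 6, were lower with no overlap of the groups in CPM, against 5.27% of all genes. With replicates 2 and 3 alone all 6 were called lower, beside 2.56% of all genes, with adjusted p from 8.8e-06 for MT1F to 0.0139 for MT2A.

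Wnt1_KP6 was also compared with control, which gives the plasmid and the peptide together and shares its libraries with both comparisons above. MT1F fell, at a log2 fold change of -1.25 ± 0.19 and an adjusted p of 0.0468, the 1 call among the 6, where 0.228% of all genes were called and 0.038% were called lower. The other 5 were at -2.19 ± 0.57 for MT1G (0.133), -1.45 ± 0.42 for MT1X (0.158), -1.44 ± 0.36 for MT1E (0.127), -1.40 ± 0.36 for MT1M (0.127) and -1.39 ± 0.50 for MT2A (0.226). All 6 had an unadjusted p under 0.05, as did 15.8% of all genes. MT1E, MT1F, MT1G and MT1M were lower with no overlap of the groups, against 11.8% of all genes.

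The MT1F call was lost when certain single libraries were left out, and so were nearly all calls in the table. Leaving out control replicate 2 or 3 gave an adjusted p of 0.276 or 0.153. Leaving out Wnt1 replicate 2 or 3 gave 0.109 or 0.114, and leaving out Wnt1_KP6 replicate 2 or 3 gave 0.264 or 0.19. Those fits called 0 genes over the whole table, except 2 without Wnt1 replicate 2. In them the unadjusted edgeR p of MT1F was 0.000169 to 0.000606. The log2 fold change stayed between -1.36 and -1.13 whichever library was left out. Its same-numbered ratios were -1.30, -1.42 and -1.28. With the replicate number as a block, MT1F (0.0038), MT1G (-2.11 ± 0.18, 0.00536) and MT1M (-1.36 ± 0.19, 0.0287) were called lower, beside 0.205% of all genes. DESeq2 called all but MT2A, beside 1.55% called lower. Without control replicate 1 all 6 were called, beside 3.65%.

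Same-numbered ratios of Wnt1_KP6 to control parted the members once more. MT1G gave -1.68, -2.64 and -2.21 and MT1M gave -1.13, -1.69 and -1.50, below 0 throughout. MT2A gave 0.56, -1.78 and -2.15, MT1X gave 0.17, -2.06 and -2.03, and MT1E gave -0.09, -1.91 and -2.03. Replicate 1 thus had MT2A and MT1X higher with plasmid and peptide than in its control, against the other replicates. With replicates 2 and 3 alone all 6 were called lower, beside 19.5% of all genes, from -2.30 ± 0.15 for MT1G to -1.25 ± 0.10 for MT1F.

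**Figure D3:**
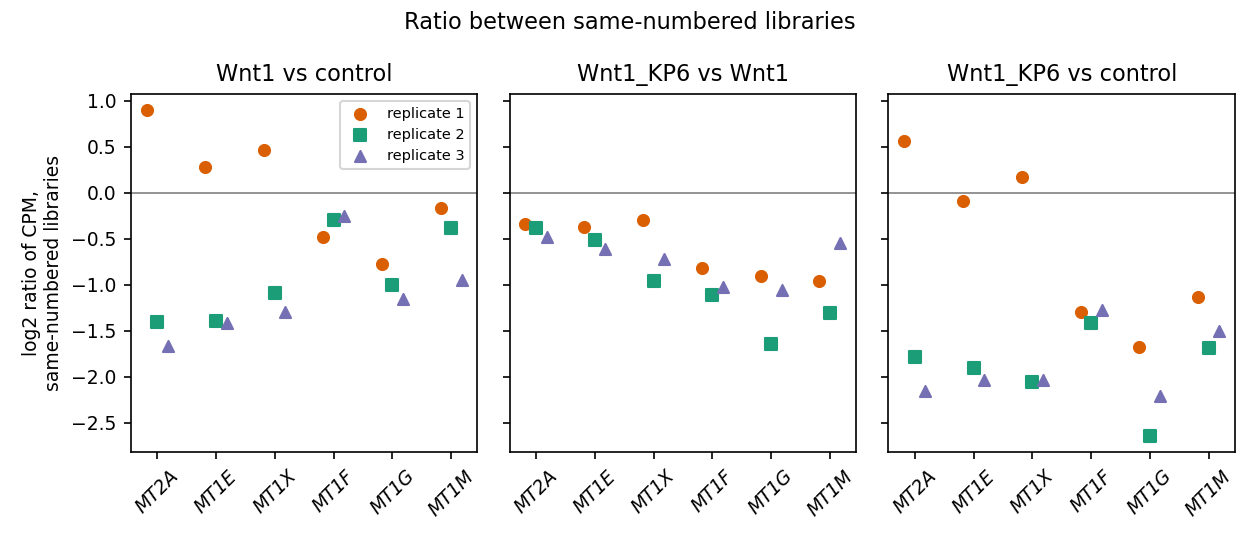
Points give the log2 ratio of CPM between same-numbered libraries for each member in the 3 comparisons, coloured by replicate number, with a line at 0. All 18 points of Wnt1_KP6 against Wnt1 lie below 0, and in both comparisons with control replicate 1 of MT2A lies above 0 (0.90 and 0.56) while replicates 2 and 3 lie below.

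The remaining metallothionein genes found by symbol were hardly detected. MT1A had 2 counts and MT1H had 3 counts, each in a single library, and MT1B, MT1HL1, MT3 (the brain form) and MT4 (a form of stratified epithelium) had 0 counts in all 9 libraries, where 0 counts allow up to 3. MT1L, MT1CP, MT1DP, MT1IP, MT1JP and MT1XP1 had no row under these symbols in the deposited table, so their levels could not be read.

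Zinc transporters outside the family showed no call by edgeR in any comparison. Of 10 SLC30 exporters, which move zinc out of the cytosol, 6 were tested, with a median log2 fold change of -0.15 for Wnt1 against control, 0.05 for Wnt1_KP6 against Wnt1 and -0.05 for Wnt1_KP6 against control. SLC30A1, the plasma membrane exporter that MTF1 also controls, averaged 100.5 ± 18.4 CPM (SD, n = 3) in the controls, 89.9 ± 6.92 with Wnt1 and 89.8 ± 14.5 with Wnt1_KP6. Of 14 SLC39 importers, which bring zinc into the cytosol, 11 were tested, with medians of 0.01, 0.04 and 0.00. At an unadjusted p under 0.05 there were 0 exporters in every comparison and 1, 0 and 1 importers, beside 11.2%, 2.76% and 15.8% of all genes. DESeq2 called 0 exporters and 1, 0 and 1 importers, all higher, beside 1.54%, 0.137% and 3.57% of all genes called higher. SLC39A14, which carries zinc and iron, was at 0.49 ± 0.10 (adjusted p = 0.128) for Wnt1 against control and at 0.55 ± 0.10 (0.0633) for Wnt1_KP6 against control, which the replicate block called (0.047). With replicates 2 and 3 alone edgeR called 1, 0 and 2 of 6 exporters, all higher. Over all genes that fit called 16.3%, 6.06% and 21.1% higher and 15.3%, 2.56% and 19.5% lower. Of the 11 importers that fit called 1 higher and 4 lower for Wnt1 against control, 1 higher and 0 lower for Wnt1_KP6 against Wnt1, and 1 higher and 2 lower for Wnt1_KP6 against control. The median over all genes tested was 0.00, 0.00 and -0.01 in the 3 comparisons, and that of the 6 metallothioneins was -0.92, -0.73 and -1.42.

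MTF1, the factor that drives metallothionein genes, averaged 41.9 ± 4.82 CPM in the controls, 48.6 ± 1.99 with Wnt1 and 52.1 ± 3.72 with Wnt1_KP6. Its log2 fold change of 0.40 ± 0.11 for Wnt1_KP6 against control had an adjusted p of 0.144. Transcript level does not measure the factor's activity, and its part in the metallothionein values was not tested. EP300, a coactivator, was at 0.33 ± 0.10 (0.182) and SP1, a promoter-binding factor, at -0.22 ± 0.08 (0.244) in the same comparison. Of this list of 7, MTF1 and its partners, 6 were tested and edgeR called none, with medians of 0.08, 0.05 and 0.25. At an unadjusted p under 0.05 there were 0, 0 and 3, beside 11.2%, 2.76% and 15.8% of all genes. DESeq2 called 0, 0 and 1 of them higher, beside 1.54%, 0.137% and 3.57% of all genes. Replicates 2 and 3 alone gave 2 higher, then 2 higher and 1 lower, then 3 higher and 2 lower by edgeR. Over all genes that fit called 16.3%, 6.06% and 21.1% higher and 15.3%, 2.56% and 19.5% lower. Of 16 copper genes, 15 were tested and neither edgeR nor DESeq2 called any (0, 0 and 1 at an unadjusted p under 0.05), with medians of -0.04, -0.03 and -0.04. Fitted on replicates 2 and 3 alone, edgeR called 1 copper gene higher and 3 lower for Wnt1 against control and 0 for Wnt1_KP6 against Wnt1. For Wnt1_KP6 against control it called 5 lower, and the shares over all genes in that fit are those given above. STEAP2, a metalloreductase, had the smallest p among them, at -0.66 ± 0.27 (0.279) for Wnt1_KP6 against control.

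Redox and metal stress genes lay on the other side of 0 from the metallothioneins. All 15 were tested, all 15 had a log2 fold change above 0 in Wnt1 and in Wnt1_KP6 against control, with medians of 0.65 and 0.73, and 10 of 15 were above 0 in Wnt1_KP6 against Wnt1, with a median of 0.04. TXNRD1, a thioredoxin reductase, rose in Wnt1_KP6 against control by 0.71 ± 0.11 (adjusted p = 0.0468), the 1 call in the list, where 0.19% of all genes were called higher. That call was lost without control replicate 2 (0.276) or 3 (0.153), Wnt1 replicate 2 (0.121) or 3 (0.114), or Wnt1_KP6 replicate 2 (0.284) or 3 (0.224). It was also lost with only the 2 groups compared (0.179) and with limma on FPKM (0.063 and 0.062). These leave-out fits and the fit of only the 2 groups called 0 genes over the whole table, except 2 without Wnt1 replicate 2. With the replicate block TXNRD1 was also called for Wnt1 against control (0.0361), where it otherwise had an adjusted p of 0.0982, and the block called 3, 0 and 4 of the 15 higher, beside 0.631%, 0% and 0.928% of all genes. At an unadjusted p under 0.05 edgeR gave 9, 0 and 11 of the 15 in the 3 comparisons, beside 11.2%, 2.76% and 15.8% of all genes. DESeq2 called 6, 0 and 8 higher, beside 1.54%, 0.137% and 3.57%. With replicates 2 and 3 alone 14 of 15 were called higher against control in both groups, beside 16.3% and 21.1% of all genes. HMOX1, heme oxygenase, was at 59.5 ± 33 CPM in control and 411.6 ± 169 in Wnt1, a log2 fold change of 2.83 ± 0.53 (0.114). Its same-numbered ratios were 1.16, 3.77 and 3.53, smallest in replicate 1. OSGIN1, an oxidative stress response gene, was at 2.12 ± 0.36 (0.0982) and 2.17 ± 0.36 (0.0584) against control.

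**Figure D4:**
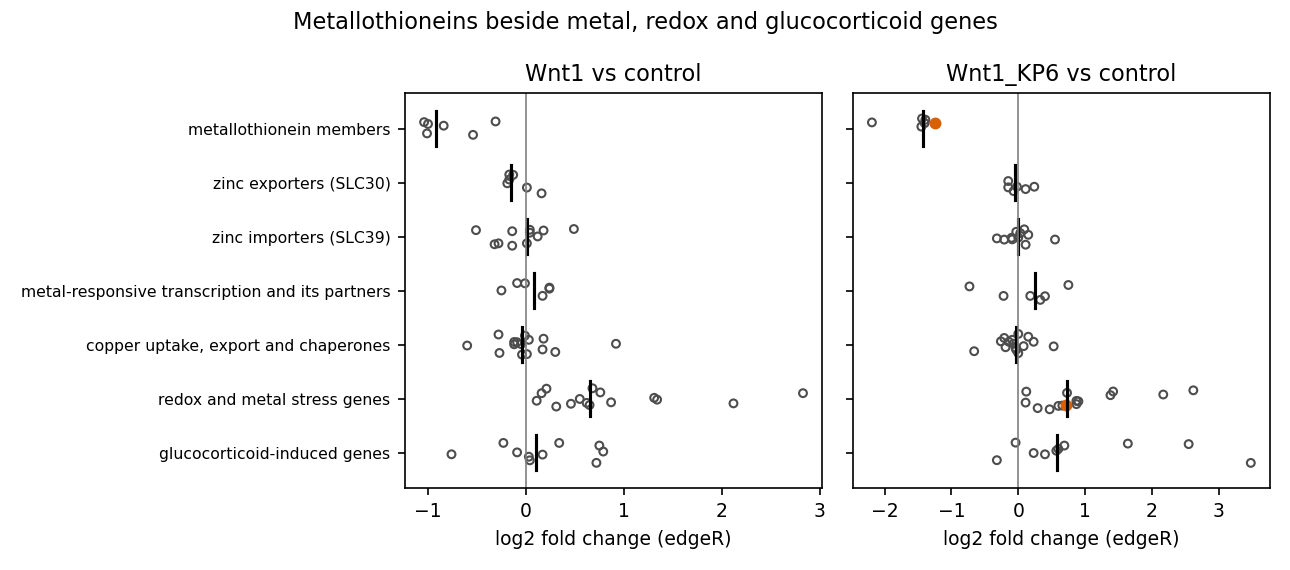
Each circle is the log2 fold change of 1 tested gene from edgeR, with Wnt1 against control on the left and Wnt1_KP6 against control on the right; filled circles passed an adjusted p of 0.05 and the bar is the list's median. The 6 metallothioneins lie left of 0 in both panels (medians -0.92 and -1.42), the 15 redox genes right of 0 (0.65 and 0.73), and the zinc and copper lists around 0.

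Genes beside the metallothioneins had median changes near 0. Within 500 kb of the outermost members the table held 12 other genes, of which 11 were tested and edgeR called none in any comparison. Their median log2 fold changes were 0.01, -0.01 and 0.00. At an unadjusted p under 0.05 there were 3, 0 and 4, beside 11.2%, 2.76% and 15.8% of all genes. DESeq2 called 1, 0 and 2, all higher, beside 1.54%, 0.137% and 3.57% of all genes called higher. Fitted on replicates 2 and 3 alone, 10 were tested, and edgeR called 3 higher and 3 lower for Wnt1 against control. It called 1 higher for Wnt1_KP6 against Wnt1, and 3 higher and 4 lower for Wnt1_KP6 against control. Over all genes that fit called 16.3%, 6.06% and 21.1% higher and 15.3%, 2.56% and 19.5% lower. NUP93, a nuclear pore gene and the nearest of them on the MT1X side, was at -0.06, -0.04 and -0.09. HERPUD1, an endoplasmic reticulum stress gene, was the highest of them, at 1.3 ± 0.28 (adjusted p = 0.143) for Wnt1 against control and 1.49 ± 0.28 (0.0691) for Wnt1_KP6 against control.

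The genes whose level over the 9 libraries was most like the members' mean were ranked by the root mean square difference of centred log2 CPM, over 10598 genes with a mean of at least 5 CPM outside the family. The closest were PDE11A (0.299), ZNF431 (0.301), RCAN3 (0.305), ZNF714 (0.340) and RBMS3 (0.343), against a median of 0.725 over the genes compared. The members' own distance from their mean ran from 0.195 for MT1X and 0.206 for MT1M through 0.223 for MT1E, 0.341 for MT2A and 0.346 for MT1F to 0.454 for MT1G. ZNF431, a zinc finger gene, was at 21, 66.1 and 58.7 CPM in the controls, 17.0, 27.0 and 26.6 with Wnt1 and 17.4, 22.9 and 23.8 with Wnt1_KP6. Control replicates 2 and 3 were its highest libraries, as for MT2A, but its replicate 1 was the lowest in every group, whereas that of MT2A was the highest in Wnt1 and Wnt1_KP6. All 9 libraries are shared by these points, and the likeness is a description.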

How the data were processed

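Poly(A) RNA of 9 HKC-8 libraries was sequenced. RSEM, HISAT2, StringTie 1.3.1, fastp 0.18.0 and Bowtie2 2.2.8 are listed in the submitters' processing notes, along with build hg38. The sources used here do not give which tool did what, nor the annotation release. The authors deposited an expected count and an FPKM value per gene and library for 20323 genes, per the file headers. The kit is not stated to keep strand, so antisense reads cannot be told apart.

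Expected counts (87.6% whole) were rounded and filtered with filterByExpr (minimum count 10, total 15), which left 13153 genes. They were scaled by TMM and fitted to 3 group means with edgeR 4.0.16 (quasi-likelihood, robust; R 4.3.3), two-sided, with Benjamini-Hochberg adjustment over all genes tested and a threshold of 0.05. CPM is the expected count scaled to a common library total, and the precision of a single count is limited by library totals of 21199078 to 27507623. FPKM served for levels per length, for the marker lists and for the limma alternatives. The fitting code was tested on simulated data with the same dispersion for every gene and no shift of replicate 1. That test therefore does not cover the split of replicate 1 seen here. Samples were grouped by their titles.

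The labels do not say that a replicate number marks a shared culture. Deviations from group means correlated across genes between same-numbered libraries in all 9 pairs (0.11 to 0.672). Such deviations cancel within a group, so with replicate 1 apart, replicates 2 and 3 tend to correlate between groups whatever the pairing. These values therefore do not settle the pairing. The numbers were used as pairs for the same-numbered ratios and the block, and the main fit has no block. Replicates 2 and 3 of different groups also correlated across numbers (0.154 to 0.398), control replicate 3 more with Wnt1_KP6 replicate 2 (0.248) than with Wnt1_KP6 replicate 3 (0.11), so the split of replicate 1 from the others is clearer than a pairing of 2 and 3. In the text, the fit with the number as a block stands beside the results it changes.

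The alternatives were DESeq2 1.42.0 and its size factors, no filter, the block, only the 2 groups compared, replicates 2 and 3 only, limma 3.58.1 on log2(FPKM + 1) and log2(FPKM + 0.1), and leaving out each library. Genes were named by this rule: the 6 members, the other metallothioneins by level, MTF1 and SLC30A1, genes of fixed lists chosen from the 3 with the smallest p per comparison, the 5 most like genes, and neighbours within 500 kb. NUP93 and HERPUD1 were singled out among the neighbours after their values were seen. Members and lists were chosen with earlier results of these data known. Gene IDs matched GENCODE 29 for 20171 of 20323 genes.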

Additional observations from a re-analysis of the deposited data

How the results depend on the processing

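The 306 member fold changes under 17 alternatives kept their direction in every case; 267 also kept their side of the threshold, 32 passed it only under the alternative, and 7 lost it, all of them MT1F in Wnt1_KP6 against control. For Wnt1 against control, 0 members were called, against 6 with replicates 2 and 3 only and 0 to 3 when 1 library was left out. For Wnt1_KP6 against Wnt1, 0 were called, against 1 with DESeq2 and 6 with replicates 2 and 3 only. For Wnt1_KP6 against control, 1 was called, against 5 with DESeq2, 3 with the replicate block, 0 with only the 2 groups compared (MT1F adjusted p = 0.112), 6 with replicates 2 and 3 only, and 0 to 6 when 1 library was left out, 6 being without control replicate 1. The block changed no other member's call. Over all genes, the 16 calls of Wnt1 against control became 302 with DESeq2, 95 with the replicate block, 9 with only the 2 groups, 4115 with replicates 2 and 3 only, and 0 to 879 when 1 library was left out. For Wnt1_KP6 against Wnt1 the 0 calls became 20 with DESeq2, 1124 with replicates 2 and 3 only, and 0 to 214 when 1 library was left out. The 30 calls of Wnt1_KP6 against control became 674 with DESeq2, 149 with the replicate block, 0 with only the 2 groups, 5293 with replicates 2 and 3 only, 11 and 19 with limma on log2(FPKM + 1) and log2(FPKM + 0.1), and 0 to 1198 when 1 library was left out. Where the replicates 2 and 3 alone are used, each group rests on 2 libraries that resemble each other more than they resemble replicate 1. Between those 2 the chi-square per degree of freedom was 3.09 in Wnt1, 3.32 in Wnt1_KP6 and 13.4 in control. Counts of calls in that fit are large for all genes. The causes of these shifts were not tested. The lowest count of a member in any library was 70, for MT1G and MT1M, so depth limits these 2 more than the others.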

Other observations

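Glucocorticoid-induced genes respond to one of the hormones that also raise metallothioneins, and 10 of 12 were tested. Their median log2 fold change was 0.10 for Wnt1 against control, 0.40 for Wnt1_KP6 against Wnt1 and 0.59 for Wnt1_KP6 against control. Among them edgeR called none, with 1, 3 and 3 at an unadjusted p under 0.05, beside 11.2%, 2.76% and 15.8% of all genes. DESeq2 called 0, 1 and 3, all higher, beside 1.54%, 0.137% and 3.57% of all genes called higher. With replicates 2 and 3 alone edgeR called 4 higher and 3 lower, then 5 higher, then 5 higher and 2 lower, with medians of -0.14, 0.80 and 0.57. Over all genes that fit called 16.3%, 6.06% and 21.1% higher and 15.3%, 2.56% and 19.5% lower. DUSP1, a phosphatase gene, was at 24.7 ± 6.27 CPM (SD, n = 3) in control, 40.7 ± 3.42 in Wnt1 and 256 ± 188 in Wnt1_KP6, a log2 fold change of 3.48 ± 0.73 against control (adjusted p = 0.0842). PER1, a clock gene, was at 2.55 ± 0.63 (0.124). For Wnt1_KP6 against control 8 of the 10 tested genes were above 0, while FKBP5 was at -0.32 ± 0.15 (0.344). Between same-numbered libraries the Wnt1_KP6 to Wnt1 ratio of DUSP1 was -0.17 in replicate 1 and 3.25 and 3.21 in replicates 2 and 3, and that of PER1 was 0.02, 2.58 and 2.45. MT1F, by contrast, gave -0.82, -1.11 and -1.03 in those same libraries.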
